A study of Mus musculus with 15 samples.

Results

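The hearts described are the 10 of 15 in this mouse study that came from animals exposed to angiotensin II, and the question is how they differ from each other within a treatment group. All 15 animals were wild-type C57BL/6 mice aged 10 weeks, and poly(A)-selected RNA from the ventricle of each was sequenced, with 5 biological replicates per group per the labels. Saline was given to the vehicle group. Mice of the AngII group had angiotensin II infused at 1000 ng/kg/min from a pump under the skin. Those of the AngII plus OA group had the same infusion and a daily dose of oleic acid, 160 mg/kg in a volume of 0.3 mL. How long the pumps ran is not given in the sources used here. The members were chosen from measured values. In the 10 exposed libraries, log2(FPKM + 1) was centred on the mean of its own group, and every gene with a mean FPKM of 1 or more was correlated with Acta1 and, separately, with Col1a1. FPKM is fragments per kilobase of gene, scaled to library size. A gene was said to follow an anchor at a Pearson r of 0.8 or more, to follow only that anchor where its r with the other was under 0.5, and to follow neither where both r lay between -0.5 and 0.5. Of 11361 genes besides the anchors, 107 followed Acta1, 261 followed Col1a1, 14 followed both and 6463 followed neither. Every r below chose or describes these genes, rests on the same 10 libraries unless stated, and carries no test.

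Acta1 encodes skeletal alpha-actin, which the fetal heart expresses and the adult ventricle expresses again under pressure load. It is a widely used transcript marker of cardiomyocyte hypertrophy, and Ankrd1, a titin-binding stretch protein of the sarcomere, is another. Col1a1 encodes the alpha-1 chain of type I collagen, the main fibrillar collagen of cardiac scar, and Postn encodes periostin, a matricellular protein of activated fibroblasts. Angiotensin II raises blood pressure and also acts on cardiac fibroblasts, so cardiomyocyte growth and matrix deposition usually appear together in this model.

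The promoter sequences of the anchor Acta1, its fellow marker Ankrd1 and the collagen genes Col1a2 and Col3a1, which followed Col1a1, show what letters lie next to the start of each gene on the cardiomyocyte and matrix sides. They are the 250 bases before the RefSeq start on GRCm38.p6, written 5′ to 3′ on the gene's strand. Capitals mark matches on either strand to the CArG box bound by serum response factor, the TEAD motif CATTCC, the AP-1 motif TGANTCA, the CCAAT box CCAAT or, as the last motif searched, TATAAA of the TATA box.
Acta1, chr8:123894776-123895025, minus strand: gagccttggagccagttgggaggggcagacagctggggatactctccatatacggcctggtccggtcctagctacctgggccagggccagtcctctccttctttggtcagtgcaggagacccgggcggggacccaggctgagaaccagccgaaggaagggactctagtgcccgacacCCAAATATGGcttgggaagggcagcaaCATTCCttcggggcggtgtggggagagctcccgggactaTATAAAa
Ankrd1, chr19:36119845-36120094, minus strand: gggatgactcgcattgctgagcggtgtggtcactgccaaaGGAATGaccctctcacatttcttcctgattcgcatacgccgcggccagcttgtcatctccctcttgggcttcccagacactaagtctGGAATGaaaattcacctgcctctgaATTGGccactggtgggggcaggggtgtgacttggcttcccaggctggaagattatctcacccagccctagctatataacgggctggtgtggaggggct
Col1a2, chr6:4505368-4505617, plus strand: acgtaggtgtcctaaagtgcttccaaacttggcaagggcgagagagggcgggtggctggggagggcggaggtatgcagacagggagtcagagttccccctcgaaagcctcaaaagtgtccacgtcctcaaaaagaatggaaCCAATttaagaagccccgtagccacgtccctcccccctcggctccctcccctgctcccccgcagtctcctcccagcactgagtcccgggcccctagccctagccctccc
Col3a1, chr1:45311288-45311537, plus strand: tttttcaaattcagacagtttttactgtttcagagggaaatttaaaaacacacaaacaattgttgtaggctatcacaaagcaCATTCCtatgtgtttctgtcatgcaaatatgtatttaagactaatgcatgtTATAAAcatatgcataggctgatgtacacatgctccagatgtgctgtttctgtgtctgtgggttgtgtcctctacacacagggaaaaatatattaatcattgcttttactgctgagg

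The Acta1 window held a CArG box from -73 to -64 and a CATTCC from -46 to -41, counted from the RefSeq start. The Ankrd1 window held 2 reverse CATTCC matches and a reverse CCAAT box. Of the 107 genes that followed Acta1, 81 had a window and 0 of these held a CArG box. A gene with more than 1 window was counted once. The motif was in 1 of the 213 Col1a1 followers with a window. It was in 1.54% of the 8611 correlated genes with a window and in 1.62% of all 27025 genes with one. Among genes with a window, CATTCC was in 7.41% of Acta1 followers and 13.1% of Col1a1 followers, against 12.9% of correlated genes. TGANTCA was in 7.41% and 6.10% of them, against 5.26% of correlated genes. CCAAT was in 40.7% and 37.6%, against 40.0%, and TATAAA in 7.41% and 5.63%, against 8.20%. A match describes the letters only.

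The FPKM denominators of the 15 libraries were 24.5 to 28.3 M. The median gene with a mean FPKM between 1 and 2 had 162.5 reads in a library, and one between 5 and 10 had 784. Cardiac muscle transcripts were abundant in every exposed heart, with the troponin gene Tnni3 at 1954 to 3910 FPKM, lowest in AngII replicate 2. The summed level of 19 sarcomere and cytoskeleton genes was 11066 FPKM in that library and 18039 to 23515 FPKM in the other exposed hearts. The library AngII replicate 2 stood apart. It lay at 56.0 on the first principal component of the centred values, which held 44.4% of their variance, while the other 9 exposed libraries lay between -19.7 and 5.2. The summed level of 10 atrial muscle genes was 3562 FPKM there and 214 to 850.4 FPKM in the other 9. The summed level of 9 adipocyte genes was 367 FPKM there and 0.889 to 144 FPKM elsewhere, and that of 7 mesothelial genes was 97.5 FPKM against 1.35 to 18.3 FPKM. Of the defining adipocyte markers, Lep stayed at or under 0.17 FPKM in every exposed heart. In vehicle hearts these sums were 151 to 893, 0.483 to 14.8 and 2.18 to 8.39 FPKM. Because of this library, and because AngII plus OA replicate 5 was the lowest of its group in Acta1, Ankrd1, Col1a1 and Postn, values are also given below over the other 8 libraries. In these bulk samples, fewer cells of a type and less RNA per cell cannot be told apart.

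Among exposed hearts given the same treatment, Acta1 varied more than the other 3 markers. In vehicle hearts it was at 126, 116, 129, 89.9 and 74.4 FPKM in replicates 1 to 5. In AngII hearts it was at 1793, 259.8, 976, 1405 and 592 FPKM, and in AngII plus OA hearts at 138, 1266, 476, 638 and 85.8 FPKM. The 5 AngII hearts all lay above the vehicle hearts and spanned 6.90-fold, and the AngII plus OA hearts spanned 14.8-fold. AngII plus OA replicate 5 lay inside the vehicle range and replicate 1 just above it. The SD of log2(FPKM + 1) was 0.34 in vehicle, 1.11 in AngII and 1.60 in AngII plus OA hearts (n = 5 each).

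Ankrd1 was at 461, 286, 401, 399 and 222 FPKM in vehicle hearts. It was at 1466, 1027, 956, 1098 and 941 FPKM in AngII hearts and at 796, 1474, 762, 729 and 498 FPKM in AngII plus OA hearts. All 10 exposed hearts lay above the vehicle hearts, and the spread within the AngII group was 1.56-fold, far narrower than that of Acta1. The hearts with the most Ankrd1, AngII replicate 1 and AngII plus OA replicate 2, were also those with the most Acta1 in their groups. AngII replicate 2 had the least Acta1 of its group and an Ankrd1 level near the middle of it.

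Col1a1 was nearly constant in vehicle hearts, at 9.73, 10.7, 11.5, 10.3 and 11.1 FPKM. It was at 40.5, 17.1, 26.8, 32.7 and 59.1 FPKM in AngII hearts and at 19.0, 24.0, 18.8, 27.6 and 8.05 FPKM in AngII plus OA hearts. The highest value, in AngII replicate 5, came from a heart whose Acta1 was below the mean of its group, and the lowest, in AngII plus OA replicate 5, was below every vehicle heart. Postn was at 7.68, 13.8, 15.6, 10.8 and 13.6 FPKM in vehicle hearts and at 50.1, 50.2, 29.8, 52.1 and 153 FPKM in AngII hearts. In AngII plus OA hearts it was at 41.4, 39.9, 32.3, 36.3 and 11.4 FPKM. AngII replicate 5 was again the highest and AngII plus OA replicate 5, which fell inside the vehicle range, the lowest.

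**Figure D1:**
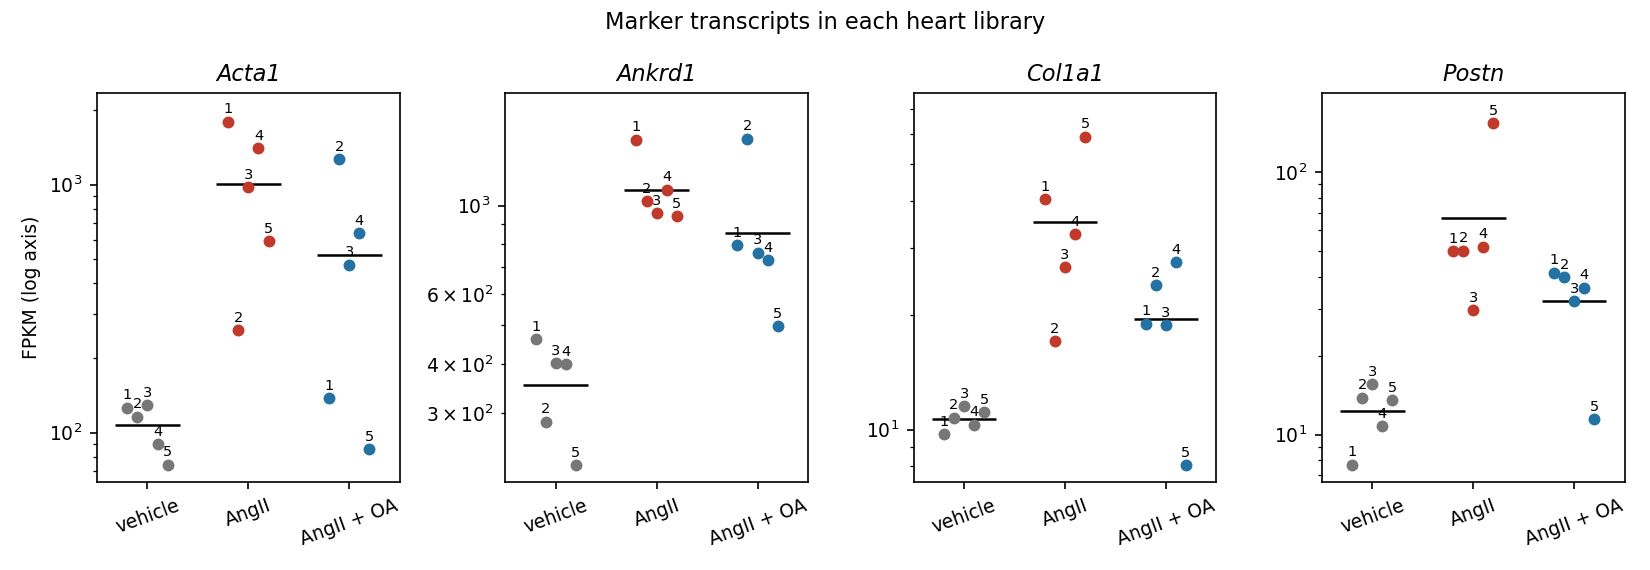
FPKM (log axis) of Acta1, Ankrd1, Col1a1 and Postn in each of 15 heart libraries, by group; each point is 1 library with its replicate number and each bar is the group mean. The exposed groups spread widely, with AngII replicate 5 highest in Col1a1 and Postn (59.1 and 153 FPKM) but not in Acta1 (592 FPKM).

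Within the exposed groups, Acta1 and Col1a1 moved together with an r of 0.66 and a Spearman rho of 0.59 over 10 libraries. The 2 libraries farthest from the median were the same for both genes, AngII replicate 2 and AngII plus OA replicate 5, and both were low in both genes. Without them r was 0.07 over the other 8 libraries, so the relation rested on those hearts. The r was 0.46 without AngII plus OA replicate 5 alone and 0.86 without AngII replicate 5, the heart of high Col1a1 and moderate Acta1. In log2 units from the group mean, AngII replicate 5 was at -0.48 for Acta1 and 0.84 for Col1a1, and AngII plus OA replicate 1 was at -1.30 and 0.06. AngII replicate 3 was at 0.25 for Acta1 and -0.27 for Col1a1.

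**Figure D2:**
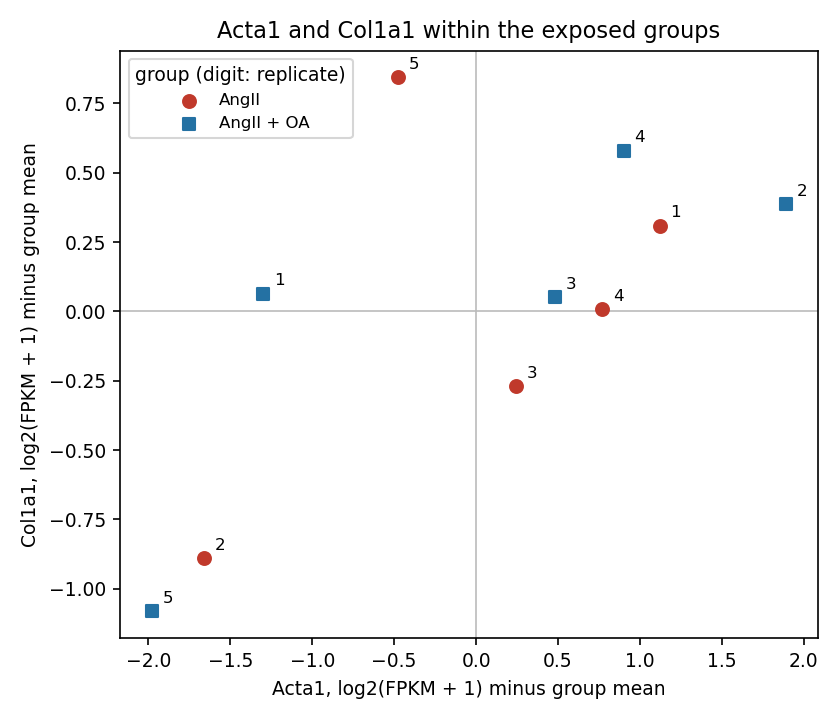
Acta1 (x axis) and Col1a1 (y axis) as log2(FPKM + 1) minus the mean of the library's own group, for 10 exposed hearts; circles are AngII and squares AngII plus OA, with replicate numbers. AngII replicate 2 and AngII plus OA replicate 5 are low in both genes, and r is 0.66 with them and 0.07 without them.

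The other markers divided unevenly between the anchors. Ankrd1 had an r of 0.74 with Acta1 and 0.48 with Col1a1 and so missed the threshold for following Acta1. Its r with Acta1 was 0.37 without AngII plus OA replicates 2 and 5, the libraries farthest from the median in Ankrd1. Postn had an r of 0.80 with Col1a1 and 0.25 with Acta1, just inside the threshold. Without AngII replicate 5 and AngII plus OA replicate 5, its 2 farthest libraries, its r with Col1a1 was 0.09. The r of Ankrd1 with Postn was 0.36.

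Acta1 was followed by 107 genes, or 0.942% of those correlated, and Col1a1 by 261, or 2.30%. The 14 genes that followed both were 0.123% of all genes, 13.1% of the Acta1 followers and 5.36% of the Col1a1 followers. Acta1 alone was followed by 20 genes and Col1a1 alone by 94; the others had an r of 0.5 to 0.8 with the second anchor. Genes opposite to an anchor, at -0.8 or less, numbered 39 for Acta1 (0.343%) and 32 for Col1a1 (0.282%). Neither anchor was followed by 56.9% of genes. Just inside the Acta1 threshold were Serpinb1c and Sox7 (r 0.8007 and 0.8016), and just outside it Atp23 and Mrm3 (both 0.7999). Just inside the Col1a1 threshold were Dnase2a and Pbdc1 (both 0.80), and just outside it Rnf135 and Capg (both 0.7998). The median r over all correlated genes was 0.13 with Acta1 and 0.20 with Col1a1.

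Leaving out the hearts low in both anchors brought the r between the anchors to 0.07, and at that r no gene can reach 0.8 with both. Over these 8 libraries a gene near one anchor is therefore far from the other by arithmetic, and its r with the other anchor, given below, is a description of these hearts only. There, 122 genes reached 0.8 with Acta1 and 432 reached it with Col1a1. Of the 107 Acta1 followers, 35 were still at 0.8 or more and 105 at 0.5 or more. Of the 261 Col1a1 followers, 66 were still at 0.8 or more and 219 at 0.5 or more. With each exposed library left out in turn, 38 Acta1 followers and 83 Col1a1 followers kept an r of 0.8 or more every time. The division into sets moved with single hearts, as the r between the anchors did. Without AngII replicate 5, where that r was 0.86 and leaves little room to follow one anchor alone, 95 genes followed both, 0 followed Acta1 alone and 3 followed Col1a1 alone. Without AngII plus OA replicate 5, where it was 0.46, 4 genes followed both and 458 followed Col1a1 alone.

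Genes that followed Acta1 alone, taken as the 10 of highest r with a mean FPKM of 5 or more, were of several kinds. Myl12a, a regulatory light chain of non-sarcomeric myosin, had an r of 0.86 with Acta1 and 0.25 with Col1a1. It was at 193, 145, 208, 206 and 135 FPKM in AngII hearts and at 154, 238, 206, 179.8 and 146 FPKM in AngII plus OA hearts. The hearts with little Acta1, AngII replicates 2 and 5 and AngII plus OA replicates 1 and 5, were the lowest of their groups in Myl12a, whose range overlapped the vehicle range of 113 to 178 FPKM. Over 8 libraries its r was 0.80 with Acta1 and -0.53 with Col1a1.

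Nop2 and Mrto4, which act in ribosome assembly in the nucleolus, both had an r of 0.83 with Acta1. With Col1a1 they had 0.49 and 0.47, close to the limit of 0.5, and 0.21 and 0.09 over 8 libraries. Nop2 was at 8.22, 5.32, 6.56, 7.93 and 6.39 FPKM in AngII hearts and at 5.71, 8.04, 6.15, 7.54 and 6.41 FPKM in AngII plus OA hearts. It was highest in the hearts with the most Acta1, and its whole range was 1.54-fold. Hacd1, a fatty acid elongation enzyme of muscle, was at 21.1, 9.95, 17.8, 20.3 and 14.6 FPKM in AngII hearts and at 14.0, 21.1, 19.0, 17.6 and 16.0 FPKM in AngII plus OA hearts. Its r with Acta1 was 0.83 over 10 and 0.93 over 8 libraries, and its r with Col1a1 was 0.45 and -0.21. The same set held the splicing regulator Rbfox2, the Mediator subunit Med9, the isoleucyl-tRNA synthetase Iars, the focal adhesion protein Parvb, the tRNA-processing enzyme Elac2 and the Ras-like GTPase Rras2. Their r with Acta1 was 0.81 to 0.83 and with Col1a1 0.32 to 0.46, and over 8 libraries their r with Col1a1 was -0.56 to -0.17.

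Other Acta1 followers were chosen after their values were seen. The importin Ipo4 had an r of 0.97, the highest, and Ckap4, a membrane protein of the endoplasmic reticulum, one of 0.95. The ribosome assembly genes Rrp7a, Wdr46 and Utp20 had an r of 0.95, 0.88 and 0.87. Srm, the spermidine synthase, had one of 0.92, and the growth kinase gene Mtor one of 0.84. Their r with Col1a1 was also positive, at 0.57 to 0.77, so they did not count as following Acta1 alone.

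Genes that followed Col1a1 alone included fibroblast and matrix genes. Col1a2, the second chain of type I collagen, was at 8.05 to 12.4 FPKM in vehicle hearts and at 29.2, 26.3, 21.0, 30.0 and 56.5 FPKM in AngII hearts. It was at 19.2, 19.3, 17.2, 21.9 and 9.63 FPKM in AngII plus OA hearts.

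Col3a1, the type III collagen gene, was at 18.5 to 33.3 FPKM in vehicle hearts. It was at 71.1, 65.2, 48.9, 82.3 and 165 FPKM in AngII hearts and at 46.1, 46.5, 42.5, 50.8 and 20.2 FPKM in AngII plus OA hearts. As with Col1a2, AngII replicate 5 was the highest and AngII plus OA replicate 5 fell inside the vehicle range. AngII replicate 2 was the lowest of its group in Col1a1, but AngII replicate 3 was the lowest in Col3a1 and Col1a2. Their r with Col1a1 was 0.85 and 0.87 over 10 libraries and 0.87 and 0.91 over 8, while their r with Acta1 was 0.31 for both over 10 and -0.25 and -0.24 over 8. The same set held the matrix glycoprotein Olfml3, the secreted serpin Serpinf1, the growth factor Tgfb3, the collagen hydroxylase subunit P4hb, the mitochondrial carboxykinase Pck2, the retinal reductase Dhrs3 and the chromatin remodelling subunit Smarcc2. Their r with Col1a1 was 0.85 to 0.89 and with Acta1 0.29 to 0.43, and over 8 libraries their r with Acta1 was -0.49 to -0.26.

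Genes that followed both anchors included the matrix genes Loxl2, Col4a1 and Fbln2. Loxl2, a lysyl oxidase that acts on type IV collagen, had an r of 0.93 with Acta1 and 0.83 with Col1a1. It was at 8.64, 3.73, 6.30, 7.56 and 7.13 FPKM in AngII hearts, at 3.52, 6.53, 4.43, 4.32 and 2.03 FPKM in AngII plus OA hearts and at 2.46 to 4.42 FPKM in vehicle hearts. Col4a1, a basement membrane collagen, was at 125, 78.2, 95.0, 119.7 and 120.0 FPKM in AngII hearts and at 56.6, 67.7, 71.5, 77.2 and 37.1 FPKM in AngII plus OA hearts. Both genes were lowest in AngII replicate 2 and AngII plus OA replicate 5. Over 8 libraries Loxl2 kept an r of 0.85 with Acta1 and had 0.32 with Col1a1, and Col4a1 had 0.54 and 0.63.

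The elastic fibre protein Fbln2 had an r of 0.87 and 0.83 with Acta1 and Col1a1, and 0.68 and 0.33 over 8 libraries. The other named genes of the set were the RNase H gene Rnaseh1, the exchange factor Arhgef7, the clathrin adaptor subunit Ap2m1, the macrophage growth factor Csf1 and the adhesion protein Ceacam1. Their r lay between 0.81 and 0.89 with each anchor. Over 8 libraries it lay between 0.52 and 0.75 with Acta1 and between 0.25 and 0.60 with Col1a1.

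The genes most opposite to Acta1 were Rit1, a Ras-like GTPase (r -0.93), Zfp277, Eif4b, a translation initiation factor, Kiz and Commd8. Rit1 was at 14.4, 16.3, 14.5, 12.6 and 15.4 FPKM in AngII hearts and at 17.7, 12.1, 14.4, 14.0 and 17.7 FPKM in AngII plus OA hearts. It was highest in AngII plus OA replicates 1 and 5, the hearts of that group with the least Acta1, but its whole range was 1.46-fold. Over 8 libraries these 5 genes kept an r of -0.91 to -0.80 with Acta1.

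The genes most opposite to Col1a1 were led by Lmod2, which extends the thin filaments of cardiac muscle (r -0.96), and Cox7b, a subunit of cytochrome c oxidase (r -0.92). Lmod2 was at 285, 410.1, 318, 322 and 254 FPKM in AngII hearts and at 266, 276, 314, 261 and 397 FPKM in AngII plus OA hearts. Its highest values came from AngII replicate 2 and AngII plus OA replicate 5, and vehicle hearts spanned 132 to 435 FPKM. Fdft1, the squalene synthase, Haus1 and Fam213a followed at -0.88 to -0.87. Over 8 libraries these 5 genes kept an r of -0.91 to -0.79 with Col1a1 and had -0.24 to 0.27 with Acta1. Selenbp1 and Dapp1 were opposite to both anchors.

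**Figure D3:**
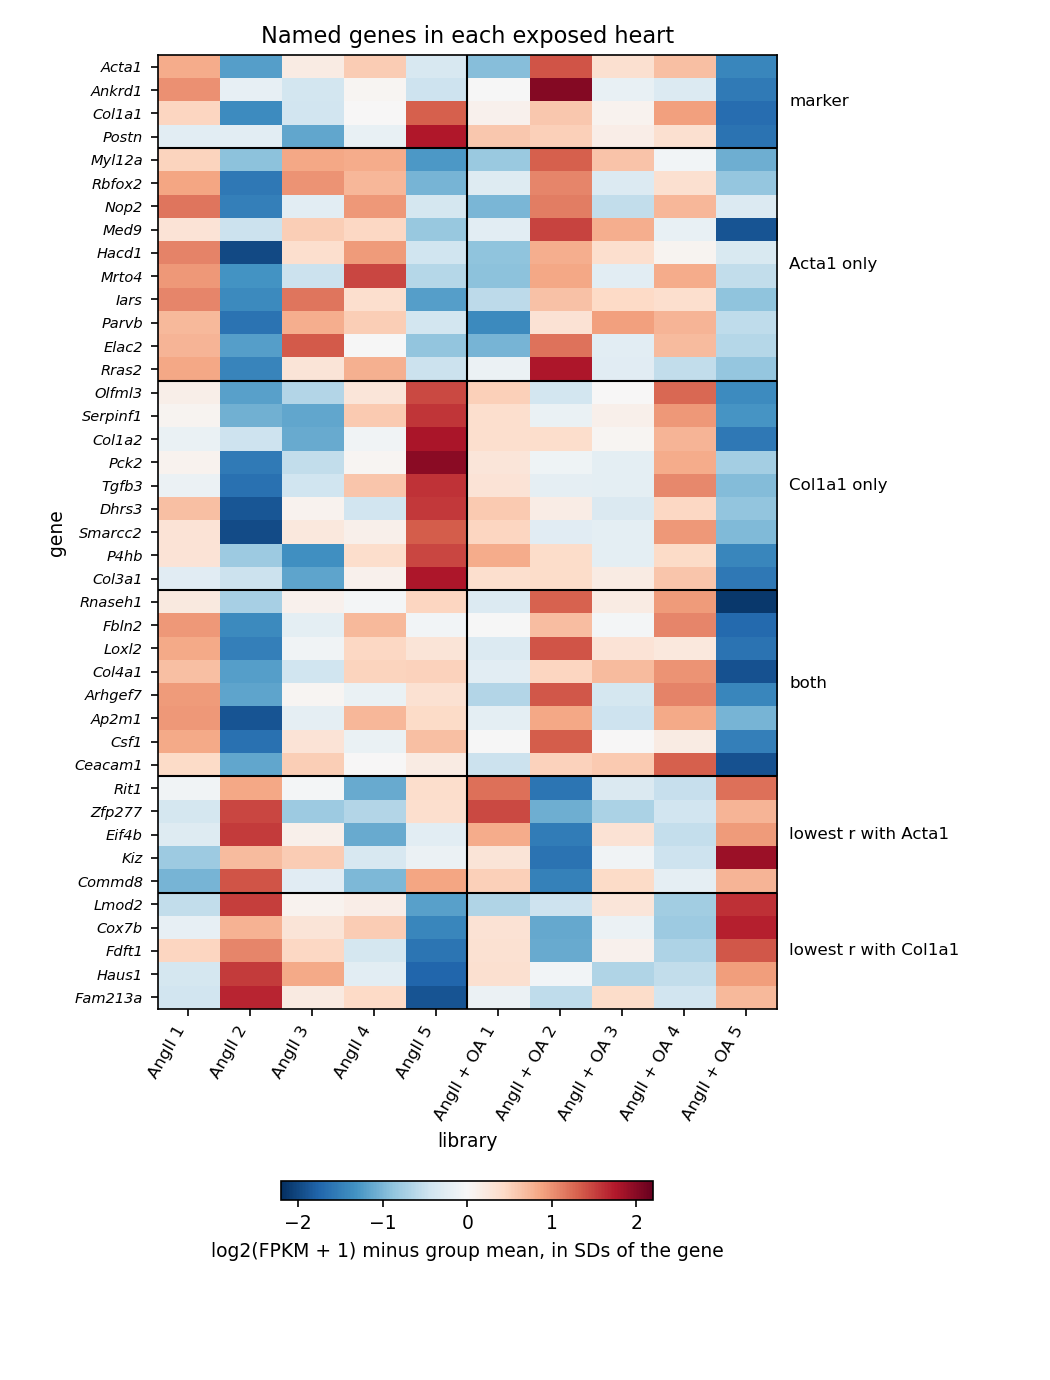
Genes chosen by their r (rows) in 10 exposed hearts (columns); colour is log2(FPKM + 1) minus the group mean, in SDs of that gene. AngII replicate 5 is high in the genes that follow Col1a1 alone and low in most of those that follow Acta1 alone, while AngII replicate 2 and AngII plus OA replicate 5 are low in all 3 sets of followers for most genes.

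The 4 cardiomyocyte lists held Acta1 followers in 3 cases, beside the 0.942% of all genes that followed it. On the fetal and hypertrophic list 0 of 18 other genes did, a count that such a share does not make unusual. Their median r was 0.26 with Acta1 and 0.19 with Col1a1, against 0.13 and 0.20 over all correlated genes, and 11 of 18 had a higher r with Acta1 than with Col1a1, as did 4514 of all 11361 genes. The natriuretic peptide gene Nppb, a marker of wall stress, had an r of 0.11 with Acta1 and -0.17 with Col1a1. It was at 467, 1301, 519.7, 2468 and 609.8 FPKM in AngII hearts and at 667, 1224, 907, 1027 and 859.8 FPKM in AngII plus OA hearts. AngII replicate 1, the heart with the most Acta1, had the least Nppb of the exposed hearts. Nppa, the atrial natriuretic peptide gene, had an r of -0.41 and -0.42 and was at 585 FPKM in AngII replicate 2 against 24.6 to 97.3 FPKM in the other exposed hearts. The list does not settle whether the label of hypertrophy holds for the genes that follow Acta1, so they are named here by their anchor.

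Of 22 titin-linked and Z-disc genes, 2 followed Acta1 and 0 followed Col1a1, beside 0.942% and 2.30% of all genes. Their median r was 0.47 with Acta1 and 0.26 with Col1a1. Over 8 libraries these medians were 0.39 and -0.24, against -0.03 and 0.17 over all correlated genes. Xirp2, an actin-binding protein of the intercalated disc, was at 122, 25.6, 87.3, 119.6 and 69.6 FPKM in AngII hearts and at 55.7, 130.0, 53.2, 65.0 and 47.9 FPKM in AngII plus OA hearts. All exposed hearts but AngII replicate 2 lay above the vehicle range of 17.6 to 40.4 FPKM. Nrap, which anchors actin filaments, was at 54.1 to 125 FPKM and had the same r of 0.82, and over 8 libraries 0.65 with Acta1 and -0.39 with Col1a1. The abundant Z-disc genes Tcap and Fhl2 followed neither.

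Of 15 chaperone genes, 1 followed Acta1, beside 0.942% of all genes: Hspb6, a small heat shock protein of muscle (r 0.84). It was at 517, 214, 412, 408 and 388 FPKM in AngII hearts and at 347, 607, 341, 356 and 281 FPKM in AngII plus OA hearts. All exposed hearts but AngII replicate 2 lay above the vehicle range of 224 to 263 FPKM. Of 19 sarcomere and cytoskeleton genes, Tln1, the integrin-linked protein talin, followed Acta1 (r 0.84), and Tnni3 and Tpm1 followed neither. The median r of this list was 0.56 with Acta1 and 0.43 with Col1a1 over 10 libraries, and 0.45 and 0.13 over 8.

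The collagens lay on the Col1a1 side. Of 5 other fibrillar collagen genes, Col1a2, Col3a1 and Col5a1 followed Col1a1 and 0 followed Acta1, beside 2.30% and 0.942% of all genes. For Acta1, a count of 0 among 5 genes is not unusual at such a share. Col5a1, a minor chain that starts fibrils, was at 10.1, 3.37, 7.67, 8.75 and 12.3 FPKM in AngII hearts and at 5.56, 6.88, 5.96, 7.19 and 3.48 FPKM in AngII plus OA hearts. Its r with Col1a1 was 0.93 over 10 and 0.99 over 8 libraries, and its r with Acta1 was 0.69 and 0.19. Of 11 other collagen genes, 6 followed Col1a1, namely Col4a1, Col4a2, Col6a1, Col6a2, Col6a3 and Col8a1, and 1, Col4a1, also followed Acta1. Col6a1 and Col6a3, of the beaded filaments around fibres, had an r of 0.96 and 0.91 with Col1a1 over 8 libraries, while Col8a1, a short-chain collagen, had 0.43.

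Of 15 genes whose proteins process collagen, 2 followed Col1a1, beside 2.30% of all genes: Loxl2 and Pcolce, the enhancer of procollagen cleavage (r 0.93). The median r of this list was 0.66 with Col1a1 and 0.38 with Acta1, against 0.20 and 0.13 over all correlated genes. Of the 15 genes, 13 had a higher r with Col1a1 than with Acta1, as did 6847 of all 11361 genes. The cross-linking enzyme gene Lox followed neither, at 70.0 FPKM in the library AngII replicate 2, at 32.1 FPKM in AngII replicate 5 and at 2.86 to 11.8 in the other exposed hearts. Of 15 matricellular genes, 2 followed Col1a1, beside the same 2.30% of all genes: Postn and Sparc, a collagen-binding protein (r 0.92). The median r of the matricellular list was 0.38 with Col1a1 and -0.25 with Acta1. The growth factor Ccn2 followed neither and was at 374 FPKM in AngII replicate 2 against 49.5 to 145 FPKM in the other exposed hearts.

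Of 18 proteoglycan and microfibril genes, Bgn, Fbn1 and Fbln2 followed Col1a1, and Fbln2 and Vcan followed Acta1, beside 2.30% and 0.942% of all genes. Fbn1, the microfibril protein fibrillin, had the highest r of these, 0.95, and 0.88 over 8 libraries. Some matrix genes ran against Acta1, chosen here after their values were seen. Thbs2, a matricellular thrombospondin, had an r of -0.75 with Acta1 over 10 and -0.99 over 8 libraries, and was highest in AngII plus OA replicate 1 (10.6 FPKM) and AngII replicate 2 (9.63 FPKM). The proteoglycan Dcn, made by resting fibroblasts, had -0.57 and -0.84. Both had an r with Col1a1 of -0.18 to 0.06 in either set of libraries.

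**Figure D4:**
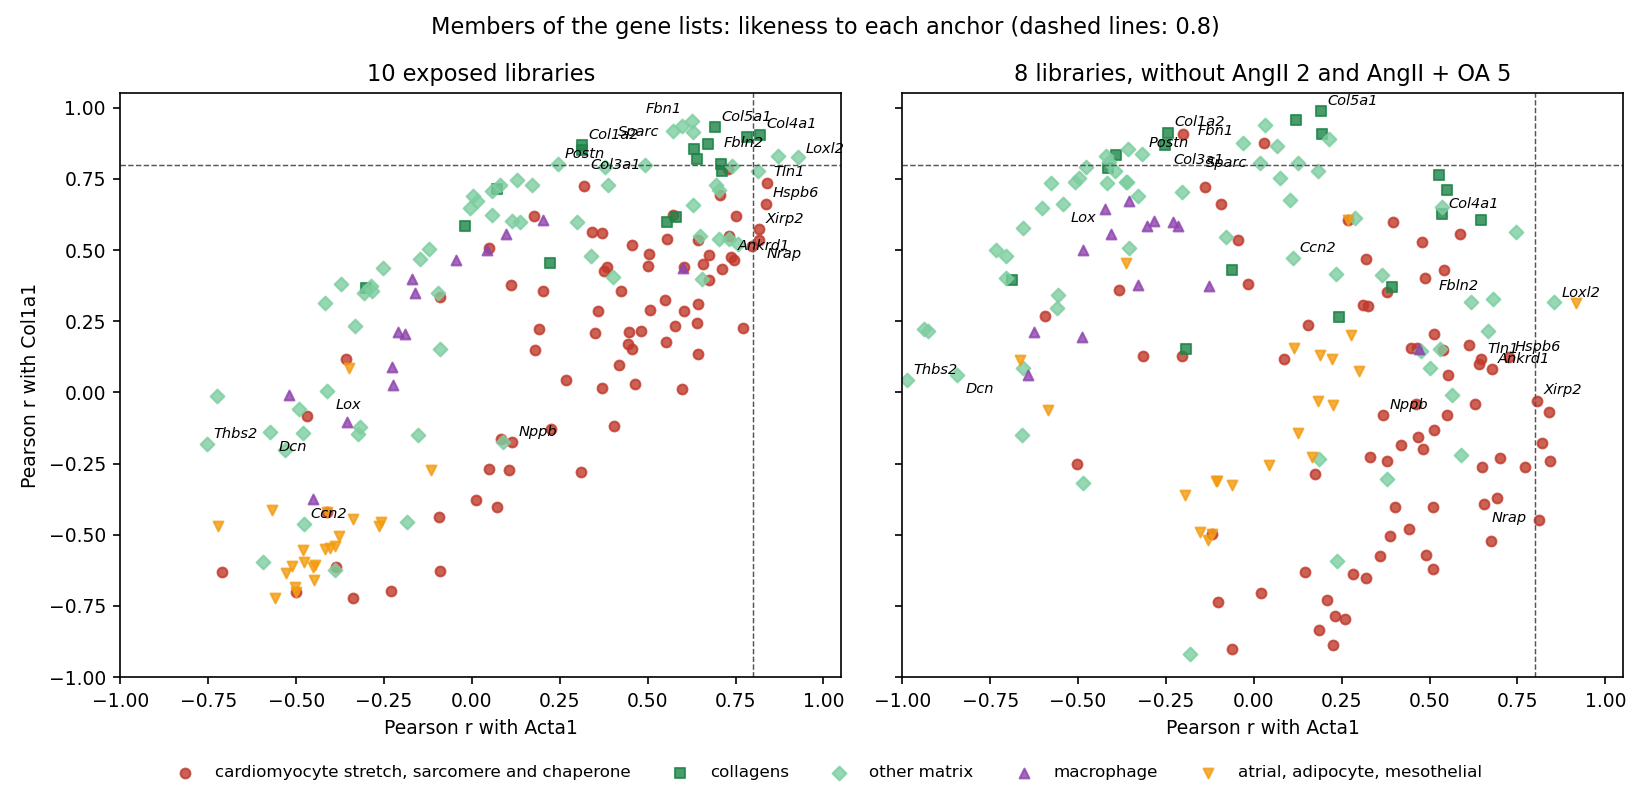
Pearson r with Acta1 (x axis) and with Col1a1 (y axis) for members of the cardiomyocyte, matrix, macrophage, atrial, adipocyte and mesothelial lists, over 10 exposed hearts (left) and over 8 without AngII replicate 2 and AngII plus OA replicate 5 (right). Collagens keep a high r with Col1a1 in both panels (Col5a1 0.93 and 0.99), while their r with Acta1 is lower on the right (Col5a1 0.69 and 0.19).

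Lists of cell type markers held 1 follower in all among fibroblast, macrophage, endothelial and smooth muscle genes, too few genes to set against shares of 0.942% and 2.30%. Of 14 fibroblast identity genes, 1, Col1a2, followed Col1a1, and the median r was 0.39 with Col1a1 and 0.15 with Acta1. Over 8 libraries that median was 0.14 with Col1a1 and -0.50 with Acta1. Of 14 macrophage genes, 10 lay between -0.5 and 0.5 with both anchors, where 56.9% of all genes lay. The complement gene C1qa had an r of -0.04 with Acta1 and 0.46 with Col1a1. The 10 smooth muscle and pericyte genes had a median r of 0.58 with Acta1 and 0.49 with Col1a1, above the medians of all genes, and the 12 endothelial genes one of 0.40 and 0.29. Over 8 libraries the smooth muscle and pericyte medians were 0.22 and -0.17 and the endothelial ones -0.004 and 0.25. Those of all correlated genes were -0.03 and 0.17 there. Of 12 interferon-stimulated genes, Rsad2, Oas1a and Ifi44, all antiviral proteins, followed Col1a1, and 12 of 12 had a higher r with Col1a1 than with Acta1, as did 6847 of all 11361 genes. Ifi44, the closest, was at 0.921 FPKM in AngII replicate 2 and 1.18 in AngII plus OA replicate 5, against 1.43 to 3.33 FPKM in the other exposed hearts. The growth factor Tgfb3 was the 1 of 14 TGF-beta pathway genes that followed Col1a1.

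Atrial, adipocyte and mesothelial genes mostly had a negative r with both anchors over 10 libraries. None of their 10, 6 and 6 correlated genes followed an anchor. Such a count is not unusual beside the 0.942% and 2.30% of all genes that followed Acta1 and Col1a1. The summed atrial level had an r of -0.48 with Acta1 and -0.61 with Col1a1, the adipocyte sum -0.49 and -0.60 and the mesothelial sum -0.38 and -0.53. Over 8 libraries the median r of their genes was -0.12 and 0.03 for the atrial, -0.08 and -0.31 for the adipocyte and 0.22 and 0.10 for the mesothelial list. Their part in the relation of Acta1 with Col1a1 was not tested. The share of FPKM in mitochondrially encoded genes had an r of -0.40 with Acta1 and -0.42 with Col1a1, and the FPKM denominator one of 0.19 and 0.32.

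Genes of energy metabolism followed neither anchor over 10 libraries. All 17 fatty acid oxidation genes, all 12 citric acid cycle genes and 19 of 20 nuclear oxidative phosphorylation genes were between -0.5 and 0.5 with both, where 56.9% of all genes were. The exception was Cox7b, described above. Over 8 libraries the median r with Col1a1 was -0.72 for fatty acid oxidation, -0.70 for the citric acid cycle and -0.68 for oxidative phosphorylation, against 0.17 over all correlated genes. Their median r with Acta1 was -0.01, 0.02 and 0.07 there. Idh2, a citric acid cycle enzyme, was at 631, 399, 626, 579.7 and 454 FPKM in AngII hearts and at 675, 636, 635, 692 and 715 FPKM in AngII plus OA hearts. It was lowest in AngII replicates 2 and 5, which differed most from each other in Col1a1 within their group.

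Each group was centred first, so differences between group means did not enter the r. The filter of a mean FPKM of 1 or more used exposed hearts alone, so genes raised in them passed it more easily. The choice of followers was therefore not wholly free of group differences, which were tested with limma over 13121 genes. Against vehicle, AngII changed 197 genes at an adjusted p under 0.05, or 1.50% of those tested, and 166 of them, or 1.27%, were higher. That number depended on single libraries: it was 79, 128, 70 and 50 when vehicle replicate 2, 3, 4 or 5 was left out, and 86, 425, 70 and 49 when AngII replicate 1, 3, 4 or 5 was. Col1a1 itself rose from 10.7 ± 0.698 to 35.2 ± 15.8 FPKM (SD, n = 5 each), a log2 difference of 1.52 (SE 0.30, limma adjusted p = 0.025). Acta1 rose by 2.96 (SE 0.64, limma adjusted p = 0.0335), Ankrd1 by 1.66 (SE 0.25, limma adjusted p = 0.0114) and Postn by 2.16 (SE 0.39, limma adjusted p = 0.0163). Of the 10 fits that each left out a vehicle or AngII library, Ankrd1 and Postn stayed called in 10, Col1a1 in 4 and Acta1 in 2, where it stayed called only without AngII replicate 2 or 3.

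Of the 11361 correlated genes, from which the followers came, limma called 160 higher and 20 lower in AngII than in vehicle, 1.58% in all. Of the 261 Col1a1 followers, 20, or 7.66%, rose in AngII against vehicle and 0 fell, beside the 1.27% of all tested genes that rose. They included the collagens Col3a1, Col8a1, Col1a2, Col4a1 and Col4a2, which rose by 1.62, 1.61, 1.44, 0.90 and 0.90 on the log2 scale. Postn, above, was also among them. Bgn rose by 1.31, Emp1, a membrane protein, by 1.26, and Sparc and the secreted glycoprotein Fstl1 each by 1.17. Serpinf1 rose by 0.99, Fbn1 by 0.86, and P4hb by 0.41, the smallest of the 20. Of the 107 Acta1 followers, 2, or 1.87%, rose, and these were Col4a1 and Fbln2, which also followed Col1a1. Of the 93 that followed Acta1 without Col1a1, limma called 0, and 21 had an unadjusted p under 0.05. The shares with such a p were alike, at 23.4% of Acta1 followers and 23.0% of Col1a1 followers. They were 17.3% of correlated genes and 16.6% of all tested genes. The median log2 differences of the 2 sets of followers were also alike, at 0.12 in both.

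Among genes following neither anchor, 104 of 6463, or 1.61%, were called. The difference between the 2 sets of followers was itself not tested. Single libraries bore on these calls: 20 of the 20 Col1a1 followers stayed called without AngII replicate 2, 8 did so when AngII replicate 5 was dropped and 9 when AngII replicate 1 or 4 was. Leaving out vehicle replicates 1 to 5 in turn left 12, 9, 14, 9 and 9 called. The 8 that stayed called in every such fit included Postn, Col3a1, Col1a2, Bgn, Sparc, Fstl1 and Fbln2.

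**Figure D5:**
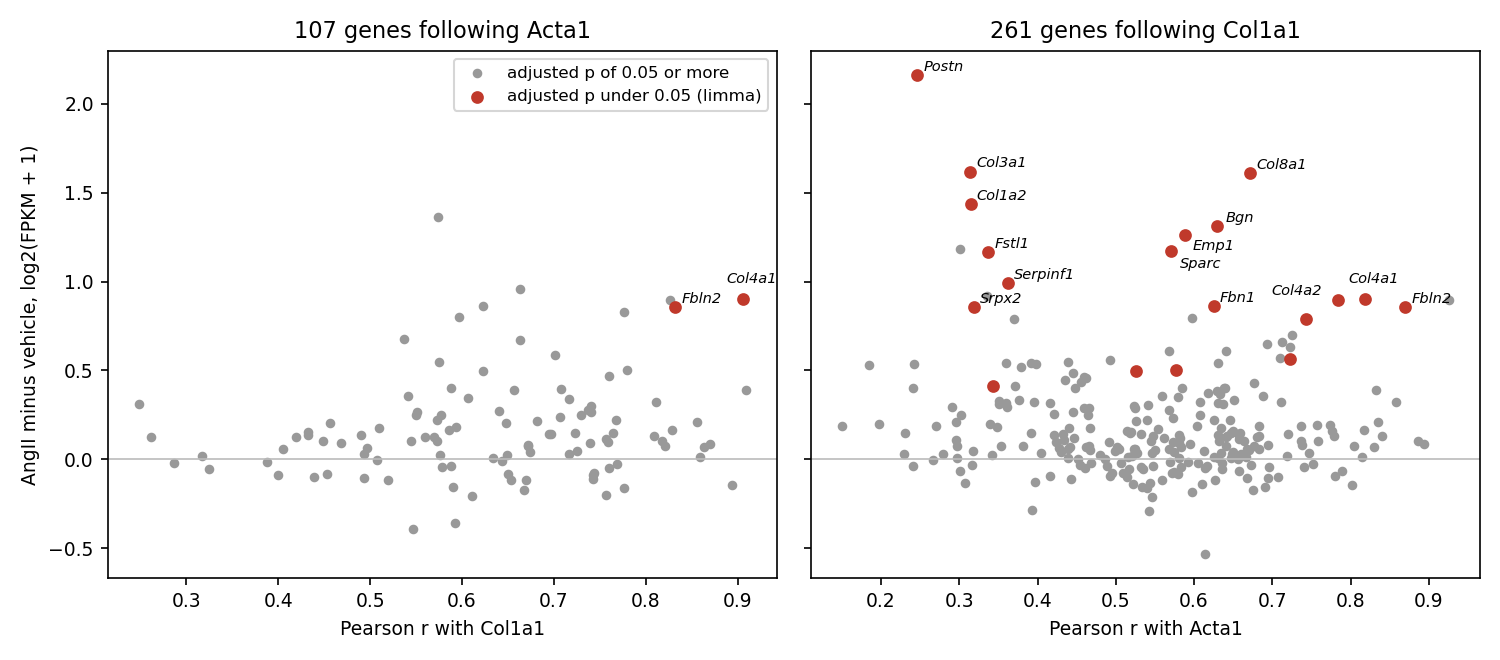
Difference of AngII from vehicle on the log2(FPKM + 1) scale (y axis) of 107 genes following Acta1 (left) and 261 genes following Col1a1 (right, 1 of them not drawn), against their Pearson r with the other anchor (x axis); red points have a limma adjusted p under 0.05. On the left 2 points are red, Col4a1 and Fbln2, and on the right 19, all above 0.

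Several Acta1 followers had a higher mean in AngII hearts that did not pass the test. Xirp2 was 1.36 higher in AngII than in vehicle (SE 0.37, limma adjusted p = 0.0863), from 29.3 ± 8.22 to 84.8 ± 39.7 FPKM (SD, n = 5 each). Hspb6 was 0.67 higher (limma adjusted p = 0.137) and Loxl2 0.90 higher (limma adjusted p = 0.0614). Of the 10 named genes that followed Acta1 alone, 0 were called by limma, 0 of all 20 in that set had an unadjusted p under 0.05, and Myl12a was 0.31 higher (limma adjusted p = 0.392).

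Oleic acid comparisons called no gene. AngII plus OA against vehicle shares the vehicle libraries with AngII against vehicle, and against AngII it shares the AngII libraries, so the comparisons are not independent. Against vehicle, limma called 0 of 13121 genes (0.00%), and 441 (3.36%) had an unadjusted p under 0.05; against AngII it called 0 (0.00%), and 866 (6.60%) had such a p. Among Col1a1 followers, 19 and 25 of 261 had an unadjusted p under 0.05 in these comparisons (7.28% and 9.58%), and among Acta1 followers 7 and 8 of 107 (6.54% and 7.48%). Over the 11361 correlated genes these shares were 3.27% and 6.80%. Col1a1 differed from vehicle by 0.71 (limma adjusted p = 1) and from AngII by -0.81 (SE 0.30, limma adjusted p = 0.71). Acta1 differed from vehicle by 1.69 (limma adjusted p = 1) and from AngII by -1.27 (SE 0.64, limma adjusted p = 0.737). The ranges of the AngII and AngII plus OA hearts overlapped for all 4 markers.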

How the data were processed

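The deposited table gives FPKM per gene as the authors computed them, for 36653 Ensembl identifiers in 15 libraries. The submitters' processing notes name HISAT2 2.0.4 as a tool and mm8 as the build. Neither the counter nor its annotation or strand setting is given there, so reads of close paralogs such as the actins may be shared. GENCODE M21 gave symbols for 36464 identifiers. FPKM steps matched whole reads, within 0.02 and with the annotated exon length, for 83.9% to 84.7% of genes above 0 in a library, and served only to judge depth. Groups came from the sample titles. Every pair of replicates differed by more than sampling noise, with a chi-square of at least 28.4 per degree of freedom.

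Correlations used log2(FPKM + 1) centred by group in Python 3.11.15. Group differences came from 1 fit of all 15 libraries to the values before centring in limma 3.58.1 (R 4.3.3, trend on the mean level) over the genes of mean FPKM 0.5 or more, with 2-sided p adjusted by Benjamini-Hochberg in each comparison; differences on that scale understate the change of low genes. Both scripts were tested on simulated data. Alternatives were a rank correlation, other thresholds, anchors, filters, pseudocounts and scalings, a replicate block, and each library left out. The set of 8 libraries was chosen after seeing the data. Vehicle hearts, at 5, were too few for a correlation of their own.

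The members and gene lists were chosen with earlier results of these data known. Named genes were the 4 markers; by r, among genes of a mean FPKM of 5 or more, the top 10 following each anchor alone, the top 8 following both and the 5 lowest for each anchor; and for each list up to 4 abundant followers and 2 abundant members following neither. One gene that the rule names is not reported here. Names outside this rule were chosen after their values were seen. Promoter windows came from RefSeq (GRCm38.p6), which was matched by symbol; Col1a1 and Loxl2 had none.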

Additional observations from a re-analysis of the deposited data

Results flagged for a closer look

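Dixon's criterion was applied to 42 genes, the 4 markers and the genes named by their r, in 126 groups of 5 libraries (3 groups each). There, 6 single values stood apart from the other 4 of their group. Chance alone marks about 1 in 20 such groups. Other genes given by library were not examined, so values that stand apart in them are not counted. Nppa, for example, was at 585 FPKM in AngII replicate 2 against 40.7 to 97.3 FPKM in the other AngII hearts. In AngII plus OA replicate 5, Postn was at 11.4 FPKM against 32.3 to 41.4 FPKM in the other 4 and Col3a1 at 20.2 FPKM against 42.5 to 50.8 FPKM. Rras2, which followed Acta1 alone, was at 28.5 FPKM in AngII plus OA replicate 2, the heart of that group with the most Acta1, against 15.0 to 17.9 FPKM. In vehicle hearts, which the correlations do not use, Parvb was at 12.4 FPKM in replicate 5 against 15.4 to 16.1 FPKM, Serpinf1 at 12.6 FPKM in replicate 1 against 18.6 to 21.3 FPKM, and Arhgef7 at 6.52 FPKM in replicate 2 against 5.16 to 5.45 FPKM.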

How the results depend on the processing

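The r of Acta1 with Col1a1 (0.66) ran from 0.46 without AngII plus OA replicate 5 to 0.86 without AngII replicate 5, and was 0.0731 without the 2 libraries farthest from the median, which were the same for Acta1 and Col1a1. Leaving out 1 library gave 111 to 258 genes following Acta1 (highest without AngII plus OA replicate 2), 274 to 796 following Col1a1 (highest without AngII plus OA replicate 5), 4 to 95 following both, 0 to 63 following Acta1 alone and 3 to 458 following Col1a1 alone. AngII against vehicle then called 49 genes (without AngII replicate 5) to 425 (without AngII replicate 3), AngII plus OA against vehicle 0 to 0, and AngII plus OA against AngII 0 to 1. Numbers of followers moved with nearly every choice, in the order Acta1, Col1a1, both, Acta1 alone and Col1a1 alone. They were 390, 858, 116, 94 and 381 at an r of 0.7, and 10, 27, 0, 0 and 5 at 0.9. A mean FPKM of 5 or more gave 52, 91, 8, 11 and 23, and all 15 libraries gave 28, 58, 2, 1 and 24. A rank correlation gave 144 following Col1a1, 3 both, 76 Acta1 alone and 60 Col1a1 alone, and quantile normalization 128, 9, 31 and 46. A mean FPKM above 0 gave 185 following Acta1 and 45 Acta1 alone, and FPKM rescaled without mitochondrially encoded genes gave 7 both. Without the 2 farthest libraries, where the r of the anchors makes 0.8 with both impossible, 0 genes followed both, 119 followed Acta1 alone, 432 Col1a1 and 429 Col1a1 alone. With Ankrd1 and Postn as anchors, 33 followed Ankrd1, 127 Postn and 0 both. AngII against vehicle called 72 genes with a mean FPKM above 0, 118 after quantile normalization, 98 after rescaling and 70 with only its own 10 libraries. Of the 20 Col1a1 followers it called, 9, 10, 11 and 11 stayed called there. When 1 library was left out, the differences of the 4 markers kept their sign in all 3 comparisons. That does not hold for every named gene, as a difference near 0 can change sign with 1 library. More genes followed Col1a1 than Acta1, except with the replicate block, and more followed Col1a1 alone, except with the block and by rank correlation. The cause of these shifts was not tested, and the counts with the block, given below, are not comparable with the others.

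The labels do not say that replicate numbers pair the samples. Deviations of same-numbered samples correlated at -0.37 to 0.46, with 6 of 15 pairs over 0.1. Those of replicate 3 were at 0.46, 0.21 and 0.28. Differently numbered samples were not compared, so these values cannot decide whether the samples were paired. With a replicate block, 2065, 1365, 506, 483 and 224 genes were in the 5 sets, in the same order, and AngII against vehicle called 38, among them 4 of the Col1a1 followers; the r of the anchors was 0.74.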

Other observations

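Several of the genes that varied most between exposed hearts given the same treatment followed neither Acta1 nor Col1a1. They were picked after their values were seen. Among them were the immediate-early transcription factor genes Egr1 and Nr4a1, which many stimuli induce within minutes. Egr1 was at 25.5, 10.0, 3.75, 26.1 and 5.03 FPKM in AngII hearts, at 7.15, 39.2, 9.38, 7.39 and 40.7 FPKM in AngII plus OA hearts and at 18.1 to 67.8 FPKM in vehicle hearts. Nr4a1 was at 18.2, 23.9, 4.56, 82.1 and 4.46 FPKM in AngII hearts, at 7.74, 8.87, 6.18, 16.6 and 41.3 FPKM in AngII plus OA hearts and at 17.8 to 63.9 FPKM in vehicle hearts. Both were low in AngII replicates 3 and 5.

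Ucp1, the uncoupling protein of brown fat, was at 48.7 FPKM in AngII replicate 2 and 21.0 FPKM in AngII replicate 4, and at most 0.369 FPKM in the other 8 exposed hearts. Scd1, a fatty acid desaturase, was at 59.8 and 60.2 FPKM in the same 2 hearts. The acute-phase serpin Serpina3n was at 610.3 FPKM in AngII replicate 2 and at 17.3 to 46.5 FPKM in the other 9. Myh7b, a slow-type myosin gene, was at 0.894 FPKM in AngII replicate 2 and at 14.5 to 46.8 FPKM in the other 9.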
